A study of Mus musculus with 3 samples.

Results

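The phagocyte NADPH oxidase was described through 7 genes, Cybb, Cyba, Ncf1, Ncf4, Rac2, Rac1 and Hvcn1, taken by symbol from a table of 23282 gene entries. All 7 were found, each in a single entry, and all 7 passed the minimum of 30 reads that was set for testing. The samples were unsorted bone marrow cells of wild type C57BL/6 males, with red cells lysed, and 3 libraries of the sterile water vehicle were measured. The animals were 6 weeks old, were gavaged for 28 days and gave their marrow on day 29. The series is about Asari Radix et Rhizoma, a herbal root and rhizome, but herb-treated marrow was not analysed here, so no comparison between treatments was made. The labels do not say whether each library is a different mouse, so p-values apply only to these samples, and differences between them may be technical.

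The oxidase makes superoxide in neutrophils, monocytes, macrophages and eosinophils, and its loss causes chronic granulomatous disease in people. Its catalytic subunit NOX2, the product of Cybb, sits in the membrane as a pair with the Cyba product p22-phox. In resting cells the other subunits stay in the cytosol, and on activation the Ncf1 organiser, the Ncf4 phosphoinositide-binding subunit and a Rac GTPase bound to GTP move to the membrane pair. Electron flow through NOX2 leaves protons behind in the cytosol, and the voltage-gated proton channel encoded by Hvcn1 lets them out.

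Start-site sequences were matched for 3 of the 7 genes in RefSeq on build GRCm38.p6, the membrane pair and Ncf1, and are shown because these 3 genes differ in base composition around the start. Each window holds 250 bases before the start and 50 after it, all 3 on the minus strand and written 5′ to 3′, so that base 251 is the start site. The RefSeq start used for Cybb lies inside the GENCODE span of the gene given with its values. Cybb lies at chrX:9469275-9469574, Cyba at chr8:122432891-122433190 and Ncf1 at chr5:134229576-134229875. Capitals mark every match, on either strand, to 4 searched motifs: GAGGAA, the core of sites for PU.1 and related ETS factors, CCAAT, the GC box GGGCGG and TATAAA.
Cybb: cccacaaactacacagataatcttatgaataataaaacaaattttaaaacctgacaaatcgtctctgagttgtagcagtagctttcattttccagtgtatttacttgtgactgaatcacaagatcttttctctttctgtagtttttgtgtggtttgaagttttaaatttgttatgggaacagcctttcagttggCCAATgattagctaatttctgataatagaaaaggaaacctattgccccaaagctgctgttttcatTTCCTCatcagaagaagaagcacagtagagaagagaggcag
Cyba: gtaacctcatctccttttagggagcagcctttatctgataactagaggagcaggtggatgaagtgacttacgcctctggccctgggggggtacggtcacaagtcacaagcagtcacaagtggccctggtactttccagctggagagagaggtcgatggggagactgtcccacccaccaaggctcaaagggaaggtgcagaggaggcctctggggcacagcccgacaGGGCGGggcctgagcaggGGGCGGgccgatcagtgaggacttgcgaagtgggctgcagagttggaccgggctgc
Ncf1: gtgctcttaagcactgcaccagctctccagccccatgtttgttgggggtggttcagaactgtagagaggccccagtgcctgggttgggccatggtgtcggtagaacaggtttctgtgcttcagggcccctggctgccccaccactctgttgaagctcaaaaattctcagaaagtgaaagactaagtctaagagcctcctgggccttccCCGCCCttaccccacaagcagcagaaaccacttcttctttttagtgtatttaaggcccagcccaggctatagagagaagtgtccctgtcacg
The Cybb window was 35.3% G and C, the Cyba window 60.7% and the Ncf1 window 54.0%, against a median of 52.7% over 32851 RefSeq windows of the same length. Cybb held 1 CCAAT, from base 195, and 1 GAGGAA, on the opposite strand from base 260, downstream of the start. GAGGAA was in 28.3% of all windows and CCAAT in 37.4%. Cyba held 2 GC boxes, from bases 227 and 245, and Ncf1 held 1 on the opposite strand, from base 209. GC boxes were in 35.7% of all windows and TATAAA, which none of these 3 windows held, in 13.6%. No 2 of the marked motifs overlapped, and a match is a string of letters, not a measured binding site.

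The libraries held between 8104828 and 9168435 gene-assigned reads, with reads in 14384 to 14599 entries, and levels are given as reads per 1000000 gene-assigned reads (CPM). Exact 95% Clopper-Pearson intervals of the members' levels reached between 1.92% and 11.5% above the value in a library, and they cover counting error only. The median gene of replicate 1 stood 0.10 on the log2 scale above its mean over the libraries when library totals were used, and 0.01 with trimmed-mean (TMM) scaling. Results on both scales are therefore given. Granulocyte markers were abundant in this marrow, with S100a9 at 37811 ± 3442 CPM (SD, n = 3). Of the T cell markers, Cd3d was the highest at 9.02 ± 3.43 CPM, and Cd3e was at 1.68 ± 0.453 CPM (SD, n = 3). In a library, 3 reads are between 0.327 and 0.370 CPM.

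Of the membrane pair, Cybb had the most reads of the 7 genes and Cyba was about level with Rac1 in reads, an order that turns when levels are taken per kilobase, as given after the values. Cybb (ENSMUSG00000015340.10, GRCm38 chromosome X, 9435252 to 9487771) was measured at 968 CPM in replicate 1, 957 in replicate 2 and 1160 in replicate 3. Replicate 3 stood above the other 2 libraries, which were close to each other. The deposited log2 values of Cybb were 9.75, 9.87 and 10.17. Its mean of 1028 ± 114 CPM (SD, n = 3) ranked 41 among the 16040 entries with reads. Cyba (ENSMUSG00000006519.11, chromosome 8, 122424776 to 122432930) was measured at 216, 158 and 203 CPM in that order, and replicate 2 was the low one. The deposited log2 values of Cyba were 7.59, 7.28 and 7.66. Its mean was 192 ± 30.3 CPM (SD, n = 3), rank 560.

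Of the cytosolic subunits analysed here, Ncf1 was abundant and Ncf4 was low, and both had their lowest level in replicate 2. Ncf1 (ENSMUSG00000015950.13, chromosome 5, 134220053 to 134229625) reached 617 CPM in replicate 1, 433 in replicate 2 and 665 in replicate 3, with deposited log2 values of 9.10, 8.73 and 9.36. Its mean was 572 ± 122 CPM (SD, n = 3), rank 119. Ncf4 (ENSMUSG00000071715.12, chromosome 15, 78244801 to 78262580) had 109, 66.5 and 99.4 CPM, with deposited log2 values of 6.61, 6.04 and 6.63. Its mean was 91.5 ± 22.2 CPM (SD, n = 3), rank 1496. Replicates 1 and 3 were closer to each other than to replicate 2 for both genes, though Ncf1 still differed between them in the test given below.

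The Rac GTPases differed in level and in spread. Rac2, whose expression is largely restricted to blood cells, lies at chromosome 15, 78559167 to 78572783 (ENSMUSG00000033220.7), and had 486, 320 and 469 CPM in replicates 1, 2 and 3. The deposited log2 values of Rac2 were 8.76, 8.29 and 8.86, and its mean of 425 ± 91.4 CPM (SD, n = 3) ranked 187. Rac1, made in nearly every cell type, lies at chromosome 5, 143503634 to 143528036 (ENSMUSG00000001847.14), and had 190, 198 and 191 CPM. The deposited log2 values of Rac1 were 7.41, 7.60 and 7.57, and its mean of 193 ± 4.56 CPM (SD, n = 3) ranked 556. Rac2 was lowest in replicate 2, the library in which Rac1 was highest. Hvcn1 (ENSMUSG00000064267.13, chromosome 5, 122206804 to 122242297) was the least abundant of the 7, with 44.4, 39.98 and 47.8 CPM, a mean of 44.1 ± 3.94 CPM (SD, n = 3) and rank 3100. The deposited log2 values of Hvcn1 were 5.34, 5.32 and 5.60. The median over the 11833 entries tested was 16.8 CPM, below all 7 genes. Together the 7 genes took 0.263%, 0.217% and 0.283% of reads in replicates 1, 2 and 3.

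**Figure D1:**
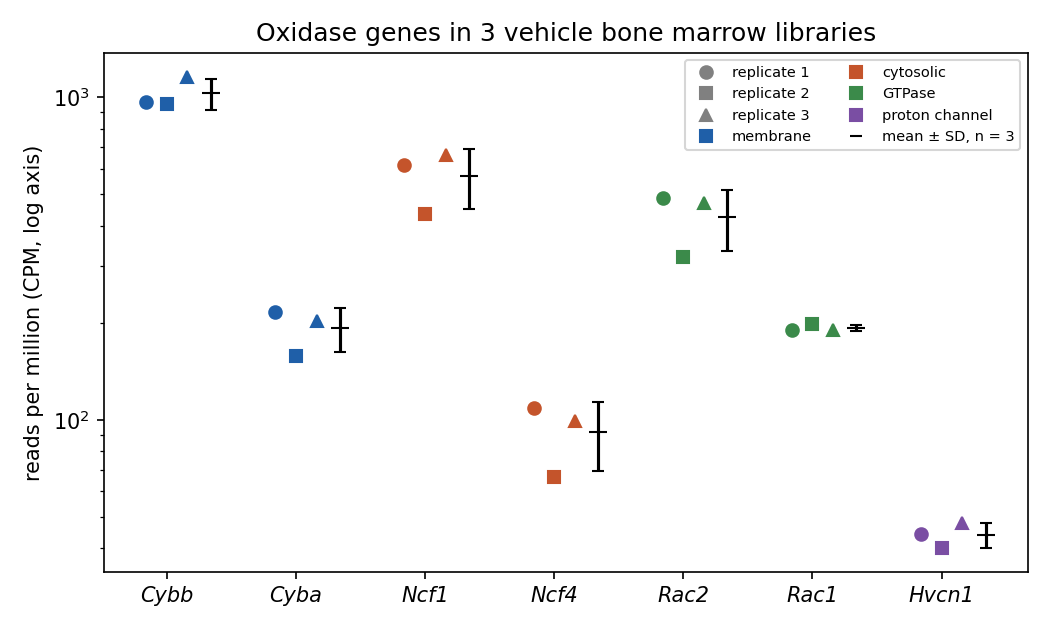
Level of each oxidase gene in CPM (log axis) in the 3 vehicle libraries, with the marker shape giving the replicate, the colour giving the class of the subunit, and a bar for the mean ± SD (n = 3). Replicate 2 is the low point of Cyba, Ncf1, Ncf4 and Rac2, while the 3 points of Rac1 lie between 190 and 198 CPM.

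In CPM, the order of the means was Cybb, Ncf1, Rac2, Rac1, Cyba, Ncf4 and Hvcn1, and Rac1 and Cyba could not be ordered. A pair of neighbours was taken to differ beyond its spread where all 3 libraries had the same order and the mean log2 difference exceeded its SD over libraries. By that rule 5 of the 6 neighbouring pairs differed. Rac1 was above Cyba in 1 of 3 libraries, by a mean log2 difference of 0.02 ± 0.27 (SD, n = 3). Ncf1 and Rac2 had overlapping ranges, yet Ncf1 was higher in each library, by 0.43 ± 0.08. Kits of the Quant-Seq name, as in the labels, read transcripts near their 3′ ends, where long transcripts do not gain reads. The catalogue number beside that name was not checked against it, and with a kit that reads whole transcripts the level per length would apply. How reads were placed along these transcripts was not tested, so levels were also divided by the length of the longest protein-coding GENCODE transcript, an alternative added after the data were seen.

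Per kilobase of transcript, Cyba moved ahead of Cybb, since its transcript of 744 bases is the shortest of the 7 and that of Cybb, at 4752 bases, the longest. Cyba then averaged 258 ± 40.8 CPM per kilobase, Cybb 216 ± 23.99, Ncf1 198 ± 42.3 and Rac2 140 ± 30.1 (SD, n = 3). Ncf4 averaged 62.5 ± 15.2, Rac1 46.4 ± 1.10 and Hvcn1 15.7 ± 1.40 CPM per kilobase. On this scale 4 of 6 neighbouring pairs differed beyond their spread, and Cybb with Ncf1 and Ncf4 with Rac1 did not, each with the same order in 2 of 3 libraries. Rac2 above Rac1, and Hvcn1 last, held on both scales in all 3 libraries.

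**Figure D2:**
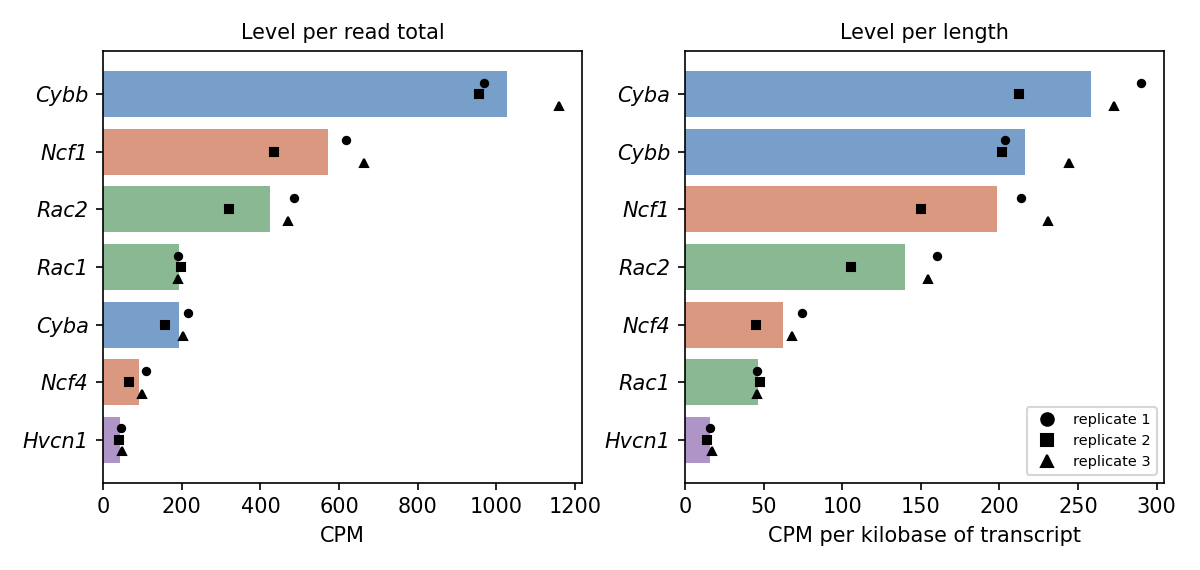
Mean level of each gene (bars, coloured by class as membrane in blue, cytosolic in orange, GTPase in green and proton channel in purple) with its 3 libraries (points), in CPM on the left and in CPM per kilobase of transcript on the right. Cybb leads on the left and Cyba on the right, while Hvcn1 is last in both.

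Summed, the membrane genes had more reads than the cytosolic genes in every library, a sum that Cybb carried in reads. In reads, Cyba alone was below Ncf1 in all 3 libraries, with a log2 ratio of -1.56 ± 0.13 (SD, n = 3). Summed, Cybb and Cyba had 1184, 1115 and 1363 CPM in replicates 1, 2 and 3, and Ncf1 and Ncf4 had 725, 500 and 764 CPM. The groups did not overlap, and the ratio was 1.63, 2.23 and 1.78. The mean log2 ratio was 0.90 ± 0.23 (SD, n = 3), above 0 in 3 of 3 libraries (two-sided exact sign-flip permutation p = 0.25, the smallest that 3 libraries can give). Per kilobase the log2 ratio was 0.88 ± 0.17, but Cybb did not carry the sum on that scale. There Cyba was above both Cybb and Ncf1 in all 3 libraries. The per-kilobase mean of Cyba was 258 CPM, against 216 for Cybb and 198 for Ncf1. Replicate 2 had the highest ratio on both scales, and its exact 95% counting interval in reads, 2.15 to 2.32, lay above those of replicate 1, 1.58 to 1.68, and replicate 3, 1.73 to 1.84. On library totals both sums were lowest in replicate 2. With TMM scaling the membrane sum was 1111, 1139 and 1430 CPM, lowest in replicate 1, and the cytosolic sum 681, 511 and 802 CPM, lowest in replicate 2.

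Rac2 exceeded Rac1 in every library, but less so in replicate 2. Of the reads of both genes, Rac2 held 71.9% in replicate 1 (exact 95% Clopper-Pearson interval 70.7% to 73.0%), 61.8% in replicate 2 (60.3% to 63.2%) and 71.1% in replicate 3 (69.96% to 72.3%). The ratio of Rac2 to Rac1 was thus 2.56, 1.61 and 2.46. Its mean log2 value was 1.12 ± 0.37 (SD, n = 3), above 0 in 3 of 3 libraries (two-sided exact sign-flip permutation p = 0.25, the smallest possible). A ratio within a library does not depend on how libraries are scaled, so the lower ratio of replicate 2 is not set by the choice of scaling. Per kilobase the log2 ratio was 1.57 ± 0.37. In bulk marrow, fewer cells of a type and less RNA per cell cannot be told apart, here or in the results that follow.

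Within each complex, the partners were unequal in reads. Cybb had 4.49, 6.05 and 5.71 times the reads of Cyba in replicates 1, 2 and 3, a mean log2 ratio of 2.43 ± 0.23 (SD, n = 3). Per kilobase the sign turned, to -0.25 ± 0.23, so which partner was more abundant depended on the length correction. Ncf1 had 5.67, 6.52 and 6.69 times the reads of Ncf4, a mean log2 ratio of 2.65 ± 0.13, and per kilobase the ratio was 1.67 ± 0.13. Both log2 ratios in reads were above 0 in 3 of 3 libraries, with the same smallest exact sign-flip permutation p of 0.25. Of these 4 ratios, that of Ncf1 to Ncf4 varied least between libraries. Hvcn1 had a log2 ratio to Cybb of -4.54 ± 0.08 in reads, lower in 3 of 3 libraries.

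**Figure D3:**
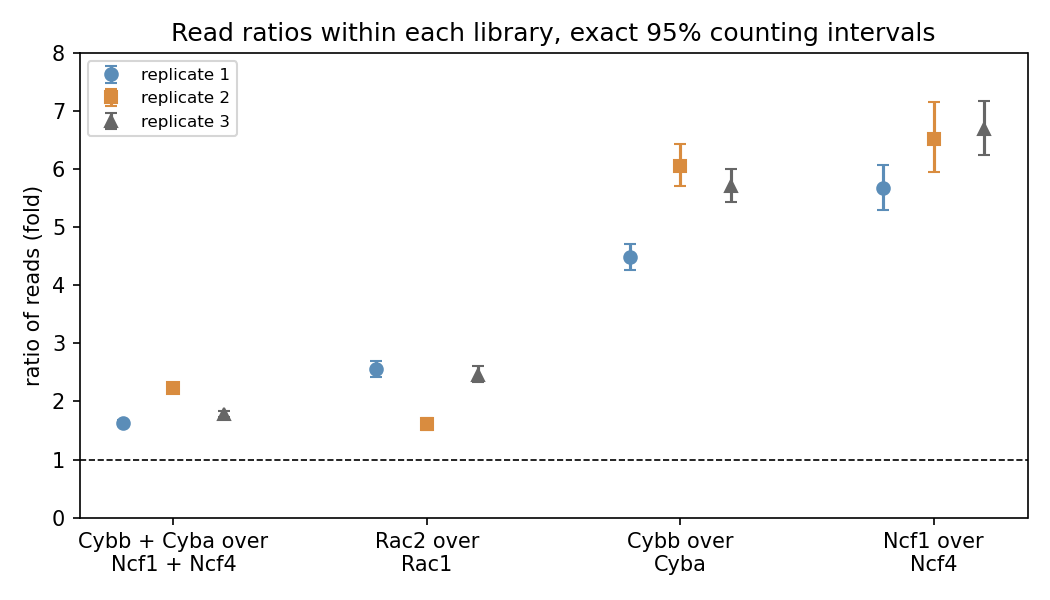
Ratio of reads within each library for the 4 pairs named on the horizontal axis, with the marker shape giving the replicate and bars giving exact 95% counting intervals, and a dashed line at 1. Replicate 2 has the highest membrane to cytosolic ratio, 2.23, and the lowest Rac2 to Rac1 ratio, 1.61.

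Of the 7 genes, 5 differed between libraries by more than counting noise, and Rac1 and Hvcn1 did not pass the test. All 5 were lowest in replicate 2 on library totals, but Cybb, at 957 CPM there and 968 CPM in replicate 1 with overlapping intervals, was set apart by its high level in replicate 3. Each library was set against the other 2 with an exact binomial test, and p-values were adjusted by Benjamini-Hochberg over all 11833 entries tested. By this rule 55.6% of all entries tested were called, and 21.1% were called with their lowest level in replicate 2, so a call is common in these libraries. The exact binomial adjusted p was 2.82e-47 for Cybb, 5.63e-17 for Cyba, 9.46e-95 for Ncf1, 2.23e-19 for Ncf4 and 1.15e-73 for Rac2. It was 0.648 for Rac1 and 0.137 for Hvcn1. These p-values follow read number as well as spread, and the fold between highest and lowest library was 1.21 for Cybb, 1.37 for Cyba, 1.53 for Ncf1, 1.64 for Ncf4 and 1.52 for Rac2.

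The coefficient of variation (CV) does not grow with read number, but it holds more counting noise where reads are few. On library totals it was higher in the genes called there than in Hvcn1 and Rac1, though Cybb lay close to Hvcn1. It was 24.2% for Ncf4, 21.5% for Rac2, 21.3% for Ncf1, 15.8% for Cyba and 11.1% for Cybb, against a median of 17.1% over all entries tested. The CV of Hvcn1 was 8.93%, where counting alone gave 5.08%. The CV of Rac1 was 2.36%, next to 2.43% from counting alone, and 1.40% of the entries tested had a lower CV. With TMM scaling the CV of Cybb was 15.7%, above Cyba at 14.2% and Hvcn1 at 11.7%.

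**Figure D4:**
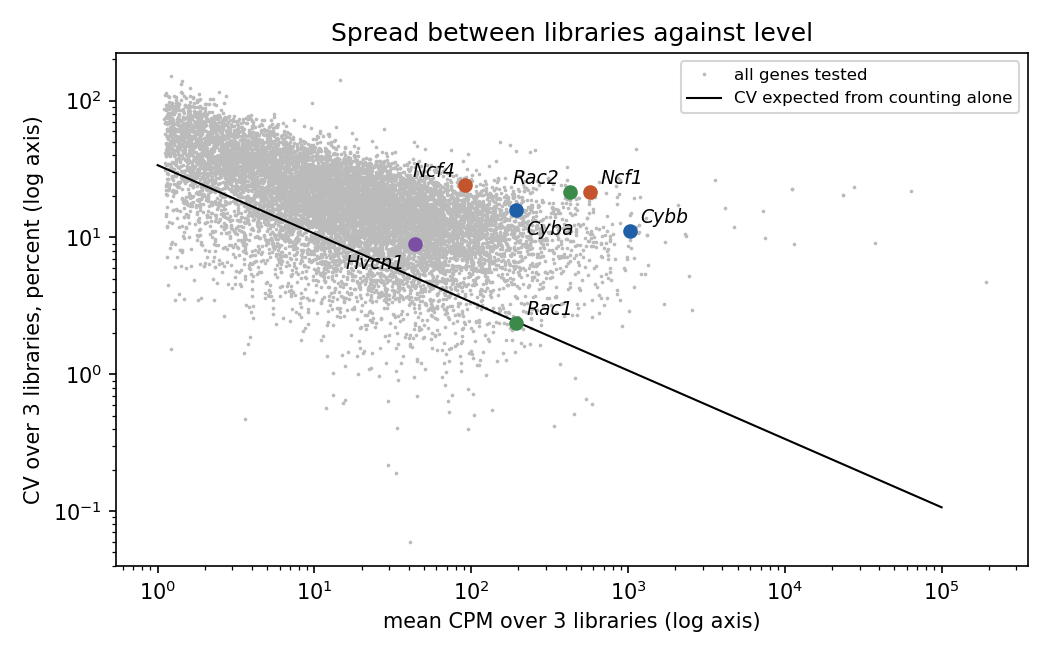
CV over the 3 libraries against mean level for all entries tested (grey), both on log axes, with the 7 oxidase genes coloured by class (membrane blue, cytosolic orange, GTPase green, proton channel purple) and a line for the CV that counting alone gives. Rac1, at 2.36%, lies on the counting line, while Ncf4, Rac2 and Ncf1 lie at 24.2%, 21.5% and 21.3%.

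With TMM scaling all 7 genes passed the test, where 50.8% of all entries did, and 5 of the 7 were called with their lowest level in replicate 2, against 17.5% of all entries. Cyba, Ncf1, Ncf4, Rac2 and Hvcn1 were lowest in replicate 2 under each of the 5 scalings tried. Cybb was lowest in replicate 2 on library totals, and in replicate 1 under the other 4 scalings, with 908, 978 and 1217 CPM in replicates 1, 2 and 3 under TMM. Under TMM the Rac1 values were 178, 203 and 200 CPM, with an exact binomial adjusted p of 0.000611. The Hvcn1 values were 41.7, 40.8 and 50.2 CPM, with one of 0.0116. Hvcn1 thus took the place of Cybb among the 5, but its replicates 1 and 2 were close and its replicate 3 stood above both. The CV of Rac1, at 6.82%, was again the lowest of the 7, as it was under each of the 5 scalings. Its near-constant level on library totals thus depended on the scaling.

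On library totals, leaving out 1 library showed which library each call rested on. This was not repeated with TMM scaling, so the scale of replicate 1 enters these results. With TMM scaling Cybb had 908 and 978 CPM in replicates 1 and 2, and Rac2 had 456 and 492 CPM in replicates 1 and 3. Without replicate 2, 2 of the 7 genes still differed, Cybb (exact binomial adjusted p = 5.93e-34) and Ncf1 (0.000321), where 38.4% of entries tested did. Cyba, Ncf4 and Rac2 no longer did (0.124, 0.111 and 0.179), and the CV of Rac2 was 2.54% in place of 21.5%. Without replicate 3, where 37.9% of entries were called, 4 genes differed and Cybb did not (exact binomial adjusted p = 0.604), with a CV of 0.819%. Without replicate 1, 6 genes differed, Hvcn1 among them (exact binomial adjusted p = 0.0468), where 34% of entries did.

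**Figure D5:**
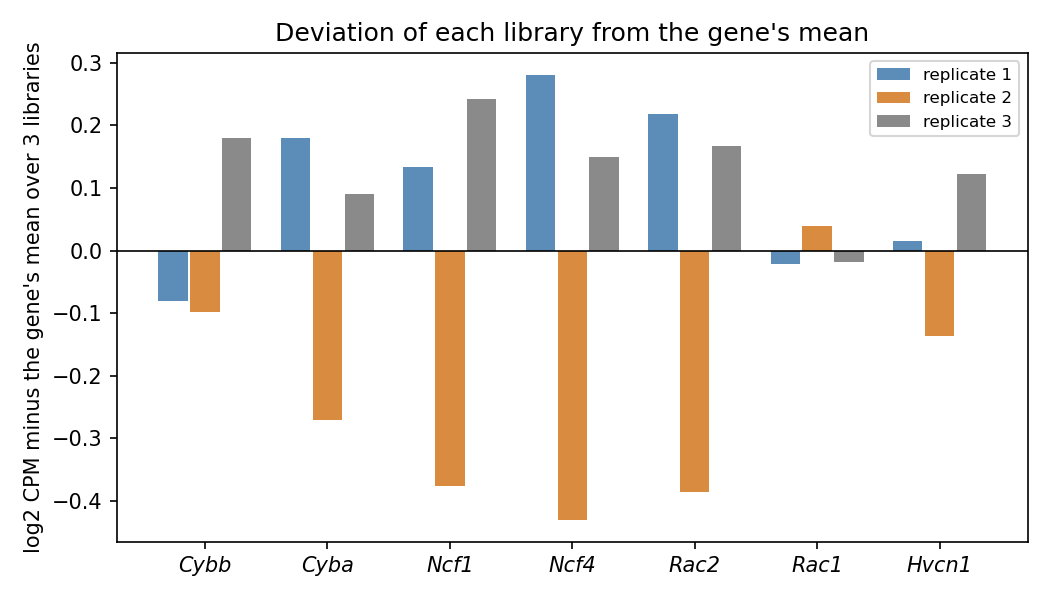
Deviation of log2 CPM in each library from the gene's mean over the 3 libraries, for the 7 oxidase genes. The bars of replicate 2 reach -0.43 for Ncf4, -0.38 for Rac2 and -0.38 for Ncf1, against -0.10 for Cybb and 0.04 for Rac1.

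The genes whose profiles over the 3 libraries were closest to each other were Rac2 with Ncf4 and Rac2 with Ncf1. Likeness was measured as the largest difference, over the 3 libraries, between log2 levels centred on their mean, a measure on which scaling has no effect. It was 0.06 for Ncf4 and Rac2, 0.08 for Ncf1 and Rac2 and 0.10 for Cybb and Hvcn1. The membrane partners Cybb and Cyba lay 0.26 apart, Rac2 and Rac1 0.42, and Ncf4 and Rac1, the widest of the 21 pairs, 0.47. Among 7128 entries with at least 300 reads over the libraries and reads in each, the profile closest to Cybb was that of Smim7 (0.0038), and that closest to Cyba was that of Gak (0.0020). Nkg7 was closest to Ncf1 (0.0034). Pygo2 was closest to Ncf4 (0.012), Suv39h1 to Rac2 (0.0067), Celf1 to Rac1 (0.0033) and Ccdc97 to Hvcn1 (0.0029). With 3 libraries such matches are common: between 145 entries, for Ncf4, and 987, for Rac1, lay within 0.1 of a member.

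Neutrophil and granule markers moved between the libraries in the same direction as Rac2, Ncf1, Ncf4 and Cyba. All 8 mature neutrophil markers, all 5 secondary granule markers and all 4 primary granule markers were called with their lowest level in replicate 2, where 21.1% of all entries tested were. With TMM scaling these counts were 8, 4 and 4, against 17.5% of all entries. The mature neutrophil markers summed to 74607, 58131 and 77393 CPM in replicates 1, 2 and 3, the secondary granule markers to 16484, 12616 and 16059 CPM, and the primary granule markers to 1957, 1336 and 1727 CPM. The 5 eosinophil markers summed to 1423, 688 and 1808 CPM, of which the granule protein gene Prg2 made up 1219, 586 and 1560 CPM. Of these 5, 3 were called, and 2 of them, Prg2 and the eosinophil peroxidase gene Epx, were lowest in replicate 2. Siglecf was lowest in replicate 3, with 9.49, 7.28 and 5.69 CPM, and the receptor genes Ccr3 and Il5ra were highest in replicate 2 and not called. Monocyte and macrophage markers were spread less, at 1181, 1120 and 1320 CPM, and were lowest in replicate 1 with TMM scaling. Of 7 such markers 3 were called with their lowest level in replicate 2, as were 3 of 6 B cell markers. With TMM scaling this fell to 1 in each list, beside the same shares of all entries. On neither scale was an erythroid or T cell marker called with its minimum there, and 1 of 4 megakaryocyte markers was on both. The erythroid markers summed to 66181, 98365 and 99517 CPM, lowest in replicate 1, the B cell markers to 530, 514 and 443 CPM, and the megakaryocyte markers to 372, 307 and 267 CPM. The 3 measured T cell markers summed to 7.96, 11.5 and 16.5 CPM. No marker of these lists was at 0 in all libraries, and their part in the differences between oxidase genes was not tested.

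Other NADPH oxidases were near or at 0 reads, apart from reads assigned to Nox1. Of 9 genes for other oxidases and their partners, 5 had no read in any library, among them Nox3, Duox1 and Duox2, which allows up to 0.114 CPM over all 26410388 reads. Nox4 and Noxa1 had 1 read each, both in replicate 3, and Noxo1 had 1.89 ± 0.171 CPM (SD, n = 3). Nox1, the colon form of the catalytic subunit, had 46.0, 49.8 and 46.8 CPM, and was not called between libraries (exact binomial adjusted p = 0.864). Its 3′ end overlaps that of Cstf2, a polyadenylation factor gene on the opposite strand, over 399 bases in GENCODE. Cstf2 had 80.1, 82.4 and 80.1 CPM. Since strand-specific counting is not stated in the sources used here, reads of Nox1 and Cstf2 cannot be told apart.

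Of the regulators of Rac, Arhgdib, the blood-cell inhibitor that holds Rac in the cytosol, was the highest at 566 ± 85.7 CPM (SD, n = 3), with 619, 467 and 611 CPM in replicates 1, 2 and 3. Dock2, a haematopoietic exchange factor for Rac, had 143, 114 and 174 CPM, and Arhgdia, the widely expressed inhibitor, 83.4, 65.9 and 71.7 CPM. Each of these 3 was lowest in replicate 2. Of 10 tested exchange factors, GTPase-activating proteins and inhibitors, 8 were called and 5 of those were lowest in replicate 2, where 55.6% and 21.1% of all entries were. With TMM scaling 5 were called, near the 50.8% of all entries, and 4 of those were lowest there, against 17.5%. The exchange factor Vav2 was the lowest of this list, at 0.539 ± 0.471 CPM.

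Of 10 genes that act on the oxidase, mostly kinases, 6 were called, near the 55.6% of all entries, and 3 of them had the minimum in replicate 2, against 21.1%. With TMM scaling 5 were called and 2 had it there, beside 50.8% and 17.5% of all entries. Prkcb, a protein kinase C isoform that phosphorylates the Ncf1 product, had 474, 487 and 461 CPM (exact binomial adjusted p = 0.149). The p21-activated kinase gene Pak2 had 210, 189 and 161 CPM and was called (6.18e-11), lowest in replicate 3. Mapk14, the p38 kinase, had 93.1, 91.2 and 88.9 CPM and was not called (adjusted p = 1). Pla2g4a, a phospholipase gene, was the lowest at 8.30 ± 1.04 CPM (SD, n = 3). Summed, this list was lowest in replicate 3 on library totals, at 1123, 1075 and 1023 CPM, and in replicate 1 with TMM scaling.

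The oxidase uses NADPH, and of 7 tested genes for NADPH supply 6 were called, 4 of them with the minimum in replicate 2, where 55.6% and 21.1% of all entries were. With TMM scaling 7 were called and 3 had it there, against 50.8% and 17.5%. Taldo1 had 406, 359 and 409 CPM, Tkt 328, 320 and 422 CPM and Pgd 288, 191 and 213 CPM, all enzymes of the pentose phosphate pathway. Me1, a malic enzyme gene, was the lowest, at 0, 0.617 and 0 CPM. Of 9 genes that remove superoxide and peroxide 8 were called, 5 of them with the minimum in replicate 2, and with TMM scaling 7 were called and 4 had it there, beside the same shares of all entries. Gpx1, glutathione peroxidase, had 1324, 1088 and 1120 CPM and Sod1, the cytosolic superoxide dismutase, 363, 339 and 343 CPM. Prdx2, an abundant red cell peroxiredoxin, was lowest in replicate 1, with 252, 319 and 286 CPM. Sod2, the mitochondrial superoxide dismutase, had the lowest level of that list, 28.8 ± 2.40 CPM (SD, n = 3).

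The 3′ ends of the 7 genes were compared with all other GENCODE transcripts, in words of 30 bases over the last 500 bases of the longest protein-coding transcript. Cybb, Cyba, Ncf4 and Rac2 shared 0 of 471 words with another gene on either strand. Rac2 and Rac1, which are 77.0% identical over their 579 coding bases, shared no such word in the coding sequence. Of the Ncf1 words, 27 occurred in other genes on the same strand and 36 on the opposite one. Of the Rac1 words, 2 occurred in other genes on the same strand, and all 471 on the opposite strand in Daglb, a lipase gene whose end overlaps Rac1 in GENCODE, or Med23. On the opposite strand 11 Hvcn1 words did so in Tctn1, a cilium gene. Daglb had 13.1, 12.96 and 16.7 CPM, against which Rac1 had 190 to 198 CPM. Tctn1 had 5.24, 3.95 and 7.66 CPM, and Gtf2ird2, whose end overlaps Ncf1 in GENCODE, had 6.98, 6.42 and 11.5 CPM. In RefSeq, Hvcn1 and Tctn1 overlapped by 2803 bases, but Ncf1 with Gtf2ird2 and Rac1 with Daglb by 0. Which annotation the authors counted on is not stated. The annotated gene Gm20388 spans all of Cyba on the opposite strand and was not analysed here. Without stated strand, reads in such overlaps cannot be assigned to one gene.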

How the data were processed

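Libraries came from 500 ng of Trizol-extracted RNA with a Lexogen Quant-Seq kit, per the labels' protocols. Bowtie2, bedtools and mm10 are named in the submitters' processing notes, while the sources used here do not state versions, annotation, strand setting or normalization. The authors deposited 1 log2 value per gene and library, and the values fit log2(x + 1), where x is reads divided by a library-wide factor. In each library, 2 to that power minus 1 was a whole multiple of 1 step for 100% of values (tolerance 1e-06), so reads were recovered. Against the recovered reads, the authors' denominators were larger by factors of 1.12, 1.03 and 1.01. The design had assumed counts; edgeR and DESeq2 were not run, since the deposited unit is log2.

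Entries with at least 30 reads were tested by two-sided exact binomial tests, setting each library against the other 2 and taking the smallest p times 3 and then Benjamini-Hochberg adjustment at 0.05. On counts simulated from all 3 libraries, with counting noise only, it called 42% of 50 genes changed 1.2-fold in 1 library, 94% of 50 changed 1.5-fold and 0 of 11797 unchanged ones. Ratios had no pseudocount and were tested by exact sign-flip permutation. The alternatives were TMM (30% and 5% trimmed), median-of-ratios, the authors' denominators, totals without Rn45s and globins, no read minimum, a pseudocount of 1, other class summaries, leaving out each library and levels per kilobase. The members, the lists and the tests were chosen with earlier results of these data known. The named genes were the 7 members, the 3 highest and the lowest of each list and the 3 closest profiles per member, of which a part is given; 1 list is not reported here. Other genes named, such as Cstf2, Daglb, Tctn1, Gtf2ird2, Prg2, Epx, Siglecf, Ccr3, Il5ra, Gm20388, Cd3e, Nox3, Duox1, Duox2 and Noxa1, were chosen after their values were seen. Python 3.11.15, numpy 2.4.6 and scipy 1.17.1 were used, with positions from GENCODE M21 on GRCm38.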

Additional observations from a re-analysis of the deposited data

How the results depend on the processing

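The count of members that differed between libraries was 5 on library totals, 7 with TMM or median-of-ratios scaling, 7 with the authors' denominators, 6 with totals without Rn45s and globins, and 5 with no read minimum. Of all entries tested, 55.6%, 50.8%, 51.0%, 51.9% and 44.3% were called under these settings in turn. Leaving out 1 library, on library totals, gave between 2 members, without replicate 2, and 6, without replicate 1. Of the 22 alternative values of the 4 log2 ratios, 19 stayed within 1 SD of the main value. Most of these could hardly do otherwise. Leaving out 1 of 3 libraries always moves a mean by less than 1 SD, and a pseudocount of 1 is small at these levels. The 3 values beyond 1 SD were all per kilobase of transcript. There Rac2 to Rac1 was 1.57, Ncf1 to Ncf4 was 1.67 and Cybb to Cyba reversed to -0.25. These follow from the transcript lengths used. The call of Rac1 changed under each of the 4 other scalings and that of Hvcn1 under 3 of them. The mean level of each gene moved by more than 1 SD with totals without Rn45s and globins, by construction, and that of Rac1 also with the authors' denominators. With 3 libraries no ratio could reach a sign-flip p under 0.25, and with 2 libraries none under 0.5. Depth limits Hvcn1 and Ncf4 most. No paired analysis was possible because there is 1 group of samples.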
